A study of Mus musculus with 4 samples.

Results

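Transcripts of 10 genes that cardiomyocytes express at high level, *Mb*, *Actc1*, *Myh6*, *Tnnt2*, *Tnni3*, *Tnnc1*, *Myl2*, *Myl3*, *Nppa* and *Pln*, were followed in neutrophils sorted from the heart. The genes were chosen by name and found by symbol, and all 10 were present among the 25655 genes of each library. Of these 10, 8 had counts in all 4 libraries. All 10 passed a mean TPM (a transcript level corrected for gene length and depth) above 1 over the 4 libraries, *Nppa* only through WT SiglecF hi neutrophils and *Myh6* and *Tnnc1* only through the SiglecF hi libraries, and 4 had a mean above 10.

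RNA-Seq was performed on 4 libraries, 1 per group, from WT and *Cd300a-/-* mice at day 3 after myocardial ischemia and reperfusion (MI/R), an injury made by tying off the left anterior descending coronary artery for 60 minutes and releasing it. CD45.2+CD11b+Ly6G+ cells from the digested hearts were divided by SiglecF into SiglecF lo neutrophils, which the labels call SiglecF-, and SiglecF hi neutrophils, labelled SiglecF+. The WT mice were C57BL/6J and the *Cd300a-/-* mice carried a germline deletion on a C57BL/6 background, so the absence of CD300a was not limited to neutrophils, and littermate controls were not stated. All mice were males of 8 to 12 weeks, all had undergone MI/R, and each library pooled 8 hearts, so that no uninjured heart and no single mouse was measured. Depth, as the sum of counts over all genes, was 9631901 and 10988619 in SiglecF lo cells from WT and *Cd300a-/-* mice, and 19278243 and 17632989 in their SiglecF hi neutrophils. A count of 0 was taken to allow up to 3 counts, which in CPM (counts scaled to 1000000 counts on genes) is 0.311, 0.273, 0.156 and 0.170 in the same order. With 1 library per group no difference had a replicate check, and the values describe these 4 libraries. The 95% intervals come from the counts alone and cover counting error only, since reads that carry no molecular identifier can be copies of the same molecule.

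The contractile unit of a cardiomyocyte is the sarcomere, in which thick filaments of myosin pull on thin filaments of actin when calcium binds the troponin complex. Myoglobin stores oxygen for this work, phospholamban restrains the pump that returns calcium to its store, and atrial natriuretic peptide is a hormone that stretched heart muscle releases. Neutrophils that enter the injured heart move among dying cardiomyocytes, and troponin released into blood is a standard measure of such injury.

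*Cd300a*, the deleted gene, had 3024 and 28 counts in SiglecF lo cells from WT and *Cd300a-/-* mice and 6640 and 27 in their SiglecF hi neutrophils. Wherever 4 values follow each other below, they stand in that order. The knockout libraries were low in both subsets, as labelled. *Siglecf* was at 11.3, 15.3, 354 and 405 TPM and was high in both libraries sorted as SiglecF hi. *Ptprc*, which encodes CD45, was at 608, 683, 646 and 710.0 TPM and *Itgam*, which encodes CD11b, at 367, 550.4, 337 and 388 TPM. *Ly6g*, which encodes the surface protein used to gate neutrophils, was at 330.4, 889, 11.1 and 41.9 TPM, so its transcript was low in both SiglecF hi libraries although those cells were sorted as Ly6G+.

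Together the 10 genes had 625 (577 to 676) and 369 (332 to 409) counts in SiglecF lo cells from WT and *Cd300a-/-* mice, and 1082 (1018 to 1148) and 1719 (1639 to 1802) in their SiglecF hi neutrophils. This was 64.9 (59.9 to 70.2), 33.6 (30.2 to 37.2), 56.1 (52.8 to 59.6) and 97.5 (92.9 to 102) CPM. These 10 genes were therefore a trace of each library, from 0.00336% to 0.00975% of the counts on genes, lowest in *Cd300a-/-* SiglecF lo and highest in *Cd300a-/-* SiglecF hi neutrophils. The intervals of WT SiglecF lo and WT SiglecF hi neutrophils did not overlap, by a narrow margin. In summed TPM the values were 67.3, 36.6, 78.8 and 129, which places WT SiglecF hi above WT SiglecF lo neutrophils. The median of the 10 genes was 7.28, 2.42, 7.94 and 12.1 TPM, against 9.71, 9.43, 15.6 and 15.9 TPM for the 11472 genes with a mean TPM above 1. In bulk libraries, fewer cells that carry a transcript and less of it per cell cannot be told apart.

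**Figure D1:**
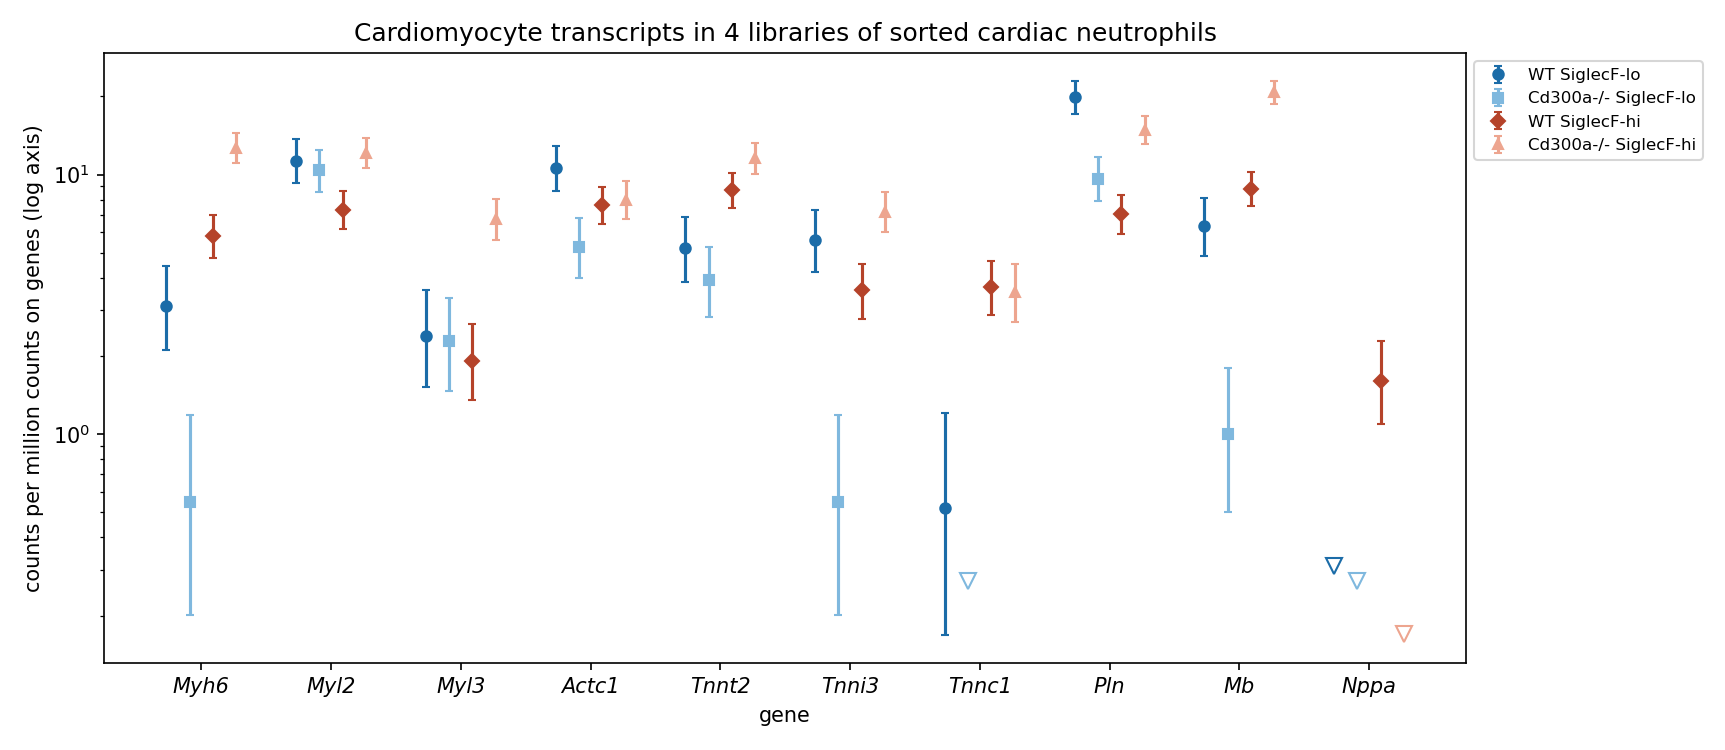
Level of each of the 10 genes in the 4 libraries, in CPM on a log axis, with 95% counting intervals. Open triangles stand for 0 counts and are drawn at the level of 3 counts. *Mb*, *Myh6* and *Tnni3* sit lowest in *Cd300a-/-* SiglecF lo and highest in *Cd300a-/-* SiglecF hi neutrophils.

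The first comparison asked how the loss of CD300a went with these transcripts in SiglecF lo neutrophils. The sum was 1.93-fold lower in the *Cd300a-/-* library, a log2 ratio of CPM of −0.95 (−1.14 to −0.76). Past a log2 ratio of 0.5, 6 of the 10 genes were lower, *Tnnc1* among them only with its count of 0 taken as 3, and 0 were higher, and 51.6% of the 11472 genes passed it in either direction, 29.4% lower and 22.2% higher. Without *Myh6* and *Tnnc1*, which passed the filter only through the SiglecF hi libraries, 4 were lower. The median of the 9 genes with a ratio was −1.0 against −0.08 for all genes tested. A shift past 0.5 was therefore common among all genes in this pair of libraries.

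In SiglecF hi neutrophils the same comparison gave a sum 1.74-fold higher in the *Cd300a-/-* library, a log2 ratio of 0.80 (0.69 to 0.91). Of the 10 genes 6 were higher and 1, *Nppa*, was lower past 0.5, where 19.7% of all genes tested passed in either direction, 8.72% higher and 11% lower. Since *Nppa* passed the filter through WT SiglecF hi neutrophils alone, it could only be lower here and only be higher between the WT subsets. Without *Nppa*, *Myh6* and *Tnnc1*, all of which passed the filter through SiglecF hi neutrophils, 5 were higher and 0 lower. The median was 0.87, or 1.01 without *Nppa*, against −0.00 for all genes. The genotype ratio of the sum thus had opposite signs in the 2 subsets, and that difference was not tested.

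Between the subsets, the genes tested were as a whole shifted upward in SiglecF hi neutrophils, with a median log2 ratio of CPM of 0.41 in WT and 0.51 in *Cd300a-/-* mice. In WT mice the sum of the 10 genes was at −0.21 (−0.35 to −0.06), and it was −0.62 relative to the median of all genes but 0.23 in summed TPM and 0.12 without *Pln*, so its direction depended on the scale and on 1 gene. There 4 genes were higher and 3 lower past 0.5, and 59.1% of all genes passed it, 44.9% higher and 14.2% lower. Without *Nppa*, *Myh6* and *Tnnc1*, which passed the filter through SiglecF hi neutrophils, 1 was higher and 3 lower. The median was 0.08, or −0.47 without these 3. Centred on the median over all genes tested, 2 were higher, or 0 without the 3, and 5 lower, with 52.9% of all genes past 0.5, 27.1% higher and 25.8% lower. In TPM with a pseudocount of 1, by contrast, 5 were higher, or 2 without the 3, and 1 lower, with 63.8% of all genes past 0.5, 54.4% higher and 9.38% lower. In *Cd300a-/-* mice the sum was 2.90-fold higher in SiglecF hi neutrophils, at 1.54 (1.37 to 1.70), and at 1.03 relative to the median. There 8 genes were higher, or 6 without *Myh6* and *Tnnc1*, and 0 lower, with 63.3% of all genes past 0.5, 50.4% higher and 13% lower, and the median of the 9 with a ratio was 1.57. Relative to the median 6 were higher, or 4 without *Myh6* and *Tnnc1*, and 0 lower, with 54.6% of all genes past 0.5, 27.5% higher and 27.2% lower. These comparisons share libraries with the genotype comparisons, so the values are only set side by side.

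*Mb* (ENSMUSG00000018893, chr15:76899687-76934870 on GRCm39, minus strand) encodes myoglobin, the oxygen store of heart and slow skeletal muscle. Its counts were 61 (46.7 to 78.4) and 11 (5.49 to 19.7) in SiglecF lo cells from WT and *Cd300a-/-* mice and 170 (145 to 198) and 366 (329 to 405) in their SiglecF hi neutrophils. This was 7.96, 1.30, 13.0 and 31.2 TPM, so *Mb* was the most abundant of the 10 transcripts in *Cd300a-/-* SiglecF hi neutrophils and the sixth in *Cd300a-/-* SiglecF lo neutrophils. In CPM both WT libraries, whose intervals overlapped, lay between the *Cd300a-/-* libraries. The log2 ratio of *Cd300a-/-* to WT was −2.66 (−3.74 to −1.72) in SiglecF lo and 1.24 (0.97 to 1.51) in SiglecF hi neutrophils. Between the subsets *Mb* was 20.7-fold higher in SiglecF hi neutrophils of *Cd300a-/-* mice, a log2 ratio of 4.37 (3.52 to 5.39), and in WT mice the log2 ratio was 0.48 (0.05 to 0.92), or 0.070 relative to the median of all genes.

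Of the thick filament, *Myh6* (ENSMUSG00000040752, chr14:55179378-55204384, minus strand) encodes the fast myosin heavy chain that moves the adult mouse ventricle. It had 30 (20.2 to 42.8) and 6 (2.20 to 13.1) counts in SiglecF lo cells from WT and *Cd300a-/-* mice and 112 (92.2 to 135) and 224 (196 to 255) in their SiglecF hi neutrophils. Although these counts were of the order of the other genes', the transcript is long, and its levels were only 0.945, 0.171, 2.07 and 4.62 TPM. The intervals of its CPM did not overlap between any pair of libraries, with *Cd300a-/-* SiglecF hi neutrophils highest and *Cd300a-/-* SiglecF lo neutrophils lowest. The log2 ratio of *Cd300a-/-* to WT was −2.51 (−4.07 to −1.22) in SiglecF lo and 1.13 (0.80 to 1.47) in SiglecF hi neutrophils. Between the subsets it was 4.54 (3.40 to 6.0) in *Cd300a-/-* and 0.90 (0.31 to 1.53) in WT mice, the latter 0.49 relative to the median of all genes and so no longer past 0.5.

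The light chains that wrap the neck of the myosin head followed another pattern. *Myl2* (ENSMUSG00000013936, chr5:122239014-122251535, plus strand), the regulatory light chain of the ventricle, had 109 (89.5 to 131) and 114 (94.0 to 137) counts in SiglecF lo cells from WT and *Cd300a-/-* mice and 141 (119 to 166) and 214 (186 to 245) in their SiglecF hi neutrophils, or 13.2, 12.5, 9.99 and 16.9 TPM. It was the steadiest of the 10 genes across the libraries in TPM, and its genotype ratio in SiglecF lo neutrophils, −0.13 (−0.52 to 0.27), had an interval that included 0. In SiglecF hi neutrophils that ratio was 0.73 (0.42 to 1.05). *Myl3* (ENSMUSG00000059741, chr9:110570929-110598866, plus strand), the essential light chain of ventricle and slow muscle, had 23 (14.6 to 34.5) and 25 (16.2 to 36.9) counts in SiglecF lo cells from WT and *Cd300a-/-* mice and 37 (26.1 to 51.0) and 119 (98.6 to 142) in their SiglecF hi neutrophils, or 3.60, 3.54, 3.39 and 12.2 TPM. *Cd300a-/-* SiglecF hi neutrophils stood above the other 3 libraries, whose intervals overlapped. Its genotype ratio was 1.81 (1.27 to 2.39) in SiglecF hi neutrophils, and −0.07 (−0.95 to 0.81) in SiglecF lo neutrophils, where no difference was detectable at this depth.

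Of the thin filament, *Actc1* (ENSMUSG00000068614, chr2:113877763-113884029, minus strand) encodes cardiac actin, the rail on which myosin pulls. Its counts were 102 (83.2 to 124) and 58 (44.0 to 75.0) in SiglecF lo cells from WT and *Cd300a-/-* mice and 147 (124 to 173) and 141 (119 to 166) in their SiglecF hi neutrophils, and its levels 12.3, 6.32, 10.4 and 11.1 TPM. WT SiglecF lo neutrophils were highest and *Cd300a-/-* SiglecF lo neutrophils lowest, with both SiglecF hi libraries close together between them. The genotype ratio was −1.0 (−1.5 to −0.53) in SiglecF lo neutrophils and 0.07 (−0.28 to 0.41) in SiglecF hi neutrophils, the latter with no difference detectable.

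The cardiac troponin complex sits on actin and makes contraction depend on calcium. *Tnnt2* (ENSMUSG00000026414, chr1:135764092-135779998, plus strand), the subunit that holds the complex to tropomyosin, had 50 (37.1 to 65.9) and 43 (31.1 to 57.9) counts in SiglecF lo cells from WT and *Cd300a-/-* mice and 168 (144 to 195) and 204 (177 to 234) in their SiglecF hi neutrophils, or 6.70, 5.22, 13.2 and 17.9 TPM. It was higher in both SiglecF hi than in both SiglecF lo libraries, with log2 ratios between the subsets of 0.75 (0.28 to 1.23) in WT and 1.56 (1.08 to 2.07) in *Cd300a-/-* mice. Relative to the median of all genes these were 0.34, no longer past 0.5, and 1.05. Its genotype ratios, −0.41 (−1.03 to 0.21) in SiglecF lo and 0.41 (0.11 to 0.71) in SiglecF hi neutrophils, did not reach 0.5.

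*Tnni3* (ENSMUSG00000035458, chr7:4521304-4527228, minus strand), the inhibitory subunit found in heart muscle alone, had 54 (40.6 to 70.5) and 6 (2.20 to 13.1) counts in SiglecF lo cells from WT and *Cd300a-/-* mice and 69 (53.7 to 87.3) and 127 (106 to 151) in their SiglecF hi neutrophils, or 7.87, 0.793, 5.89 and 12.1 TPM. *Cd300a-/-* SiglecF lo neutrophils were far below the other libraries. The genotype ratio there, −3.36 (−4.87 to −2.14), was the lowest among the 8 genes that had counts in both SiglecF lo libraries, while in SiglecF hi neutrophils it was 1.01 (0.57 to 1.45). Between the subsets *Tnni3* was 1.57-fold lower in SiglecF hi neutrophils of WT mice, at −0.65 (−1.18 to −0.11), and 13.2-fold higher in those of *Cd300a-/-* mice, at 3.72 (2.56 to 5.19).

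*Tnnc1* (ENSMUSG00000091898, chr14:30930269-30933686, plus strand), the subunit that binds calcium in heart and slow muscle, had 5 (1.62 to 11.7) counts in SiglecF lo neutrophils of WT mice and 0 in those of *Cd300a-/-* mice, and 71 (55.5 to 89.6) and 62 (47.5 to 79.5) in the SiglecF hi neutrophils. Its levels were 1.35, 0, 11.2 and 10.9 TPM. It was thus high in both SiglecF hi libraries and at or near 0 in both SiglecF lo libraries. Between the subsets it was 7.09-fold higher in SiglecF hi neutrophils of WT mice, a log2 ratio of 2.83 (1.54 to 4.49), and in those of *Cd300a-/-* mice at least 10.2-fold higher by the 95% counting limit, or 12.9-fold with the 0 taken as 3 counts. The genotype ratio in SiglecF hi neutrophils was −0.07 (−0.58 to 0.45), and in SiglecF lo neutrophils *Tnnc1* was at least 1.05-fold lower in the *Cd300a-/-* library by that limit, or 1.90-fold with the 0 taken as 3 counts, both resting on 5 counts.

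*Nppa* (ENSMUSG00000041616, chr4:148085179-148086536, plus strand) encodes atrial natriuretic peptide, which the atria make at all times and the stressed ventricle makes again. It had 31 (21.1 to 44.0) counts, or 4.08 TPM, in WT SiglecF hi neutrophils and 0 counts in each of the other 3 libraries. Within SiglecF hi neutrophils the *Cd300a-/-* library was at least 7.24-fold lower than WT by the 95% counting limit, and within WT mice the SiglecF hi library exceeded the SiglecF lo library by at least 3.95-fold. With the 0 taken as 3 counts these folds were 9.45 and 5.16. No fold could be given for the comparison of genotypes in SiglecF lo neutrophils or of subsets in *Cd300a-/-* mice, since both libraries were at 0. *Nppb*, the gene of the related ventricular peptide, was at 0 in all 4 libraries. *Corin*, the protease that activates the *Nppa* product, had 94, 0, 2 and 0 counts, so its highest library was one in which *Nppa* was at 0.

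*Pln* (ENSMUSG00000038583, chr10:53213763-53222083, plus strand) encodes phospholamban, the brake on the calcium pump SERCA2. It had 191 (165 to 220.1) and 106 (86.8 to 128) counts in SiglecF lo cells from WT and *Cd300a-/-* mice and 136 (114 to 161) and 262 (231 to 296) in their SiglecF hi neutrophils, or 13.5, 6.78, 5.62 and 12.1 TPM. It was the most abundant of the 10 transcripts in WT SiglecF lo neutrophils and the only gene to be highest there in CPM beside *Actc1*. The genotype ratio was −1.04 (−1.40 to −0.69) in SiglecF lo and 1.07 (0.77 to 1.38) in SiglecF hi neutrophils. Between the subsets *Pln* was 2.81-fold lower in SiglecF hi neutrophils of WT mice, at −1.49 (−1.82 to −1.17), and higher in those of *Cd300a-/-* mice, at 0.62 (0.29 to 0.96), which came to 0.11 relative to the median of all genes.

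**Figure D2:**
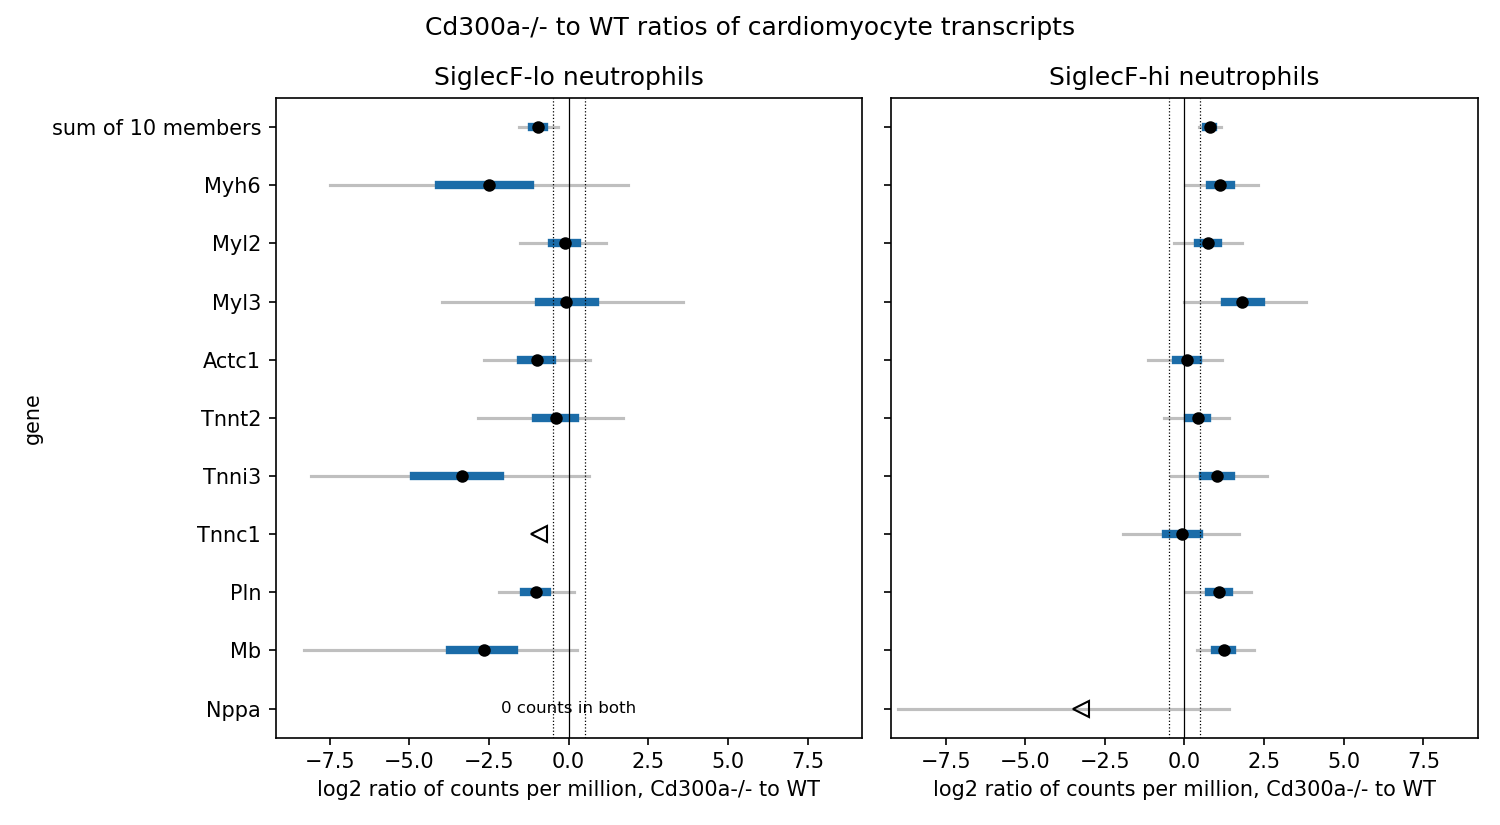
Log2 ratio of CPM in *Cd300a-/-* to WT libraries, for SiglecF lo (left) and SiglecF hi neutrophils (right). Points are ratios, thick blue bars are 95% counting intervals, thin grey lines are the intervals if 10 counts stood for 1 molecule, clipped at 9 on either side and left out where they could not be computed, open triangles take a count of 0 as 3 counts, and dotted lines mark −0.5 and 0.5. The sum lies at −0.95 on the left and 0.80 on the right.

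The 10 genes did not keep the same proportions to each other. *Pln* made up 30.6% (27.0 to 34.3, Clopper-Pearson) and 28.7% (24.2 to 33.6) of their summed counts in WT and *Cd300a-/-* SiglecF lo neutrophils, against 12.6% (10.7 to 14.7) and 15.2% (13.6 to 17.0) in the SiglecF hi libraries. *Mb* made up 9.76% (7.55 to 12.4), 2.98% (1.5 to 5.27), 15.7% (13.6 to 18.0) and 21.3% (19.4 to 23.3). *Myl2* took 30.9% (26.2 to 35.9) in *Cd300a-/-* SiglecF lo neutrophils and at most 17.4% (14.5 to 20.6) in the other libraries. In both genotypes *Pln* thus had the larger share in SiglecF lo and *Mb* in SiglecF hi neutrophils.

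Ratios of counts within a library carry no scaling between libraries. There were 0.319 (0.235 to 0.428), 0.104 (0.0503 to 0.193), 1.25 (0.992 to 1.58) and 1.40 (1.19 to 1.64) counts of *Mb* per count of *Pln*. Per count of *Myl2* there were 0.560 (0.402 to 0.773), 0.0965 (0.0468 to 0.179), 1.21 (0.959 to 1.52) and 1.71 (1.44 to 2.03), and per count of *Actc1* 0.598 (0.428 to 0.829), 0.190 (0.0898 to 0.365), 1.16 (0.922 to 1.45) and 2.60 (2.13 to 3.18). All 3 ratios were lower in both SiglecF lo libraries, and the intervals of the SiglecF hi libraries overlapped for *Pln* and *Myl2* but not for *Actc1*. Within the troponin complex, *Tnni3* per *Tnnt2* was 1.08 (0.721 to 1.62), 0.140 (0.0485 to 0.329), 0.411 (0.306 to 0.547) and 0.623 (0.495 to 0.781). The light chain ratio of *Myl3* per *Myl2* was 0.211 (0.128 to 0.333), 0.219 (0.136 to 0.340), 0.262 (0.178 to 0.379) and 0.556 (0.441 to 0.699), so that only *Cd300a-/-* SiglecF hi neutrophils stood apart in it.

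**Figure D3:**
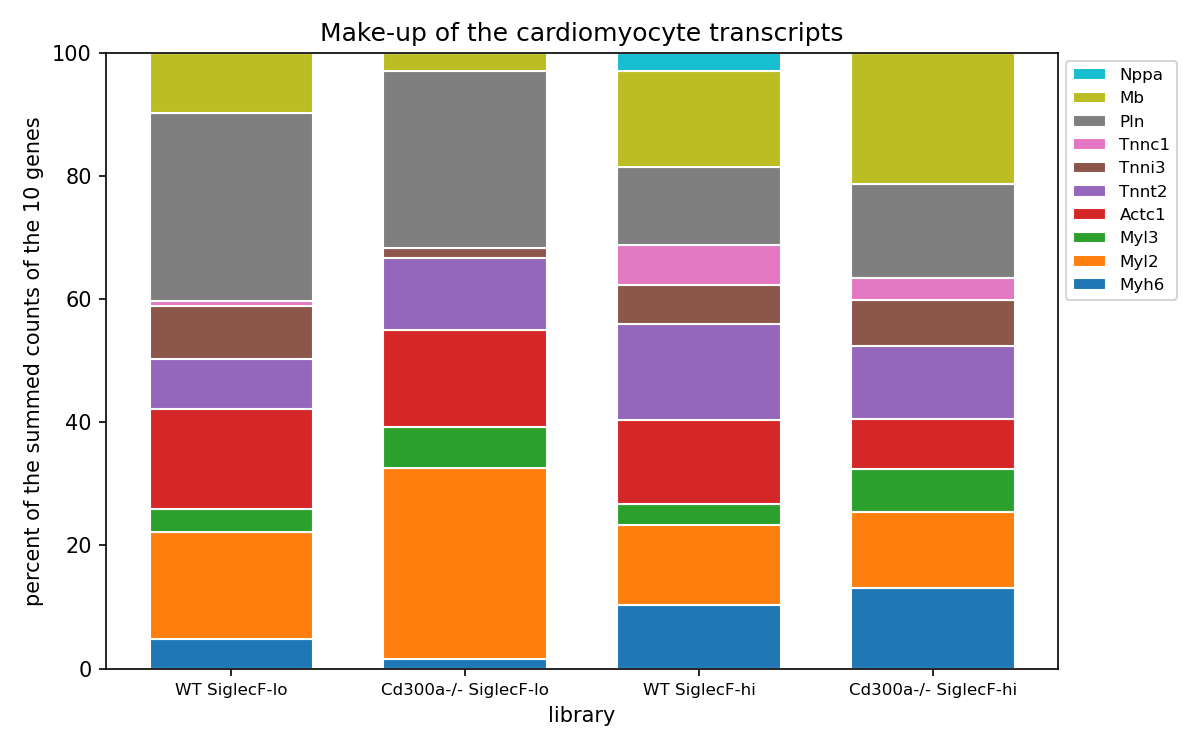
Share of each of the 10 genes in their summed counts, in percent, 1 bar per library. *Pln* takes 30.6% and 28.7% in the SiglecF lo libraries and 12.6% and 15.2% in the SiglecF hi libraries.

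The counting intervals may be too narrow, above all in the SiglecF lo libraries, whose low counts were spread differently from those of the SiglecF hi libraries. In SiglecF hi neutrophils 384 genes had 1 count and 116 had 10 in WT mice, and 257 and 82 did in *Cd300a-/-* mice. In SiglecF lo neutrophils the numbers were 118 and 131 in WT and 124 and 132 in *Cd300a-/-* mice, with no excess of genes at 1 count. The origin of this difference was not tested. With the intervals above, all 6, 7, 7 and 8 genes past 0.5 in the 4 comparisons, taken as genotype in SiglecF lo, genotype in SiglecF hi, subset in WT and subset in *Cd300a-/-* mice, had an interval that excluded 0. If 10 counts stood for 1 molecule, a setting chosen after the data were seen, this held for 0, 3, 1 and 4 genes. The share of all genes with such intervals was not counted under either setting, so these counts describe the 10 genes alone.

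A further 50 genes of heart muscle, none of them among the 10, were taken in 6 lists. Of these, 40, 32, 46 and 41 had counts in the 4 libraries, and together they were at 587, 267, 325 and 321 CPM. A few genes gave much of this sum, so it is not a measure of heart muscle RNA alone. Of 5652, 2930, 6273 and 5653 counts, *Atp2a2*, which cells other than muscle also use, had 1055, 1009, 2711 and 2140. *Kcnj2* had 379, 394, 665 and 861 and *Slc8a1* 283, 252, 886 and 622. In WT SiglecF lo neutrophils *Ttn* had 1538. The sum of the 50, unlike that of the 10, was highest in WT SiglecF lo neutrophils, where 24 of the 50 had their highest CPM, against 3, 10 and 11 in the other libraries. The share of all genes highest in each library was not counted, here or for the lists below. Only 29 of the 50 had a mean TPM above 1, so the shares beside the counts here are over all genes with a ratio, without that filter. Past 0.5, 30 of the 42 with a ratio in SiglecF lo neutrophils were lower and 4 higher in the *Cd300a-/-* library, with a median of −1.40, beside 33.2% lower and 25.2% higher of 13688 genes. In SiglecF hi neutrophils 13 of 45 were lower and 20 higher, with a median of 0.21, beside 18.4% and 14.6% of 14828. Between the subsets 24 of 45 were lower and 8 higher in SiglecF hi neutrophils of WT mice, beside 18% and 43.5% of 14714, and 11 of 42 lower and 17 higher in those of *Cd300a-/-* mice, beside 16.8% and 50.1% of 14284. Relative to the median of the genes above 1 TPM, 30 were lower and 4 higher in WT mice, beside 27.9% and 27.6%, and 17 lower and 14 higher in *Cd300a-/-* mice, beside 30% and 29.1%, so the balance in *Cd300a-/-* mice turned with the scale.

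The gene that led a list is the one with the highest mean TPM over the 4 libraries. The 8 genes of thick filament, M band and titin were led by *Myom1*, which ties thick filaments together, at 4.94, 1.72, 1.40 and 1.47 TPM. *Ttn*, the giant spring of the sarcomere, had 1538, 169, 90 and 226 counts, so most of its counts fell in WT SiglecF lo neutrophils, where *Mb* and *Myh6* were not highest. *Myl7*, the regulatory light chain of the atrium, had 8, 0, 21 and 0 counts, and *Myl4*, the atrial essential light chain, had 0, 6, 44 and 13. The summed TPM of this list was 12.6, 4.24, 10.5 and 4.72.

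The 11 genes of the Z disc, thin filament and intermediate filament summed to 39.3, 13.6, 19.3 and 29.4 TPM and were led by *Des*, the muscle intermediate filament, at 19.2, 8.16, 7.0 and 3.99 TPM. *Tcap*, which caps titin at the Z disc, had 18, 10, 31 and 46 counts, *Myoz2* 34, 0, 8 and 43 and *Ankrd1*, a stretch-induced gene, 23, 0, 43 and 78. In CPM 7 of the 11, *Des* and *Myoz2* among them, were highest in WT SiglecF lo neutrophils and 4, *Tcap* and *Ankrd1* among them, in *Cd300a-/-* SiglecF hi neutrophils. The 13 genes of calcium handling and ion channels summed to 84.3, 57.9, 79.4 and 76.7 TPM. The largest part of that sum was *Atp2a2*, at 35.9, 31.1, 54.0 and 47.6 TPM, which encodes the pump that phospholamban restrains and which cells other than muscle also use. *Casq2*, the calcium store protein of the heart, was at 17.8, 9.01, 1.02 and 1.59 TPM and was high in both SiglecF lo libraries, as was *Pln* in its share. *Kcnj3*, an atrial potassium channel, was at 0 in all libraries.

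The 11 genes of energy metabolism summed to 102, 49.6, 74.7 and 87.4 TPM, led by *Eno3*, a muscle enolase, at 36.9, 28.0, 26.8 and 31.6 TPM. *Fabp3*, the fatty acid carrier of heart muscle, was at 16.3, 4.72, 14.5 and 13.6 TPM and was lowest in *Cd300a-/-* SiglecF lo neutrophils. *Cox7a1*, a subunit of cytochrome oxidase in heart and muscle, was at 6.55, 0, 6.60 and 12.8 TPM. In CPM 7 of the 11 were highest in WT SiglecF lo neutrophils, 2 in WT SiglecF hi and 2, *Cox7a1* among them, in *Cd300a-/-* SiglecF hi neutrophils. The 5 cardiac transcription factors summed to 3.30, 3.30, 5.41 and 3.92 TPM, led by *Tbx20* at 1.42, 0.904, 2.12 and 1.21 TPM, and the list of *Nppb* and *Corin* to 3.68, 0, 0.0459 and 0 TPM. The 13 genes of the mitochondrial genome, which every cell expresses, summed to 46228, 44059, 60977 and 57725 TPM, led by *mt-Co2* at 8462, 8581, 10698 and 10377 TPM.

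Genes of other cells of the digested heart were present beside those of cardiomyocytes. The endothelial list, with 10 of 10 genes detected in each library, summed to 650.0, 207, 407 and 538 TPM, led by *Fabp4* at 412, 117, 259.8 and 349.8 TPM. Its log2 ratios of summed CPM were −1.57 for genotype in SiglecF lo, 0.37 for genotype in SiglecF hi, −0.89 for subset in WT and 1.04 for subset in *Cd300a-/-* mice, beside −0.95, 0.80, −0.21 and 1.54 for the 10 cardiomyocyte genes. The endothelial list and the 10 genes were both lowest in *Cd300a-/-* SiglecF lo neutrophils, and endothelial transcripts were highest in WT SiglecF lo neutrophils. The list of smooth muscle and pericyte genes, with 8 of 8 detected in each library, summed to 829, 329.9, 125 and 83.0 TPM, led by *Acta2* at 365, 123, 55.2 and 31.5 TPM, and was high in both SiglecF lo libraries. The fibroblast list, with 10 of 10 detected, summed to 1844, 1886, 3192 and 2634 TPM, led by *Gsn* at 816, 833, 987 and 1080.4 TPM. Gelsolin, its product, is made by many cells, and *Col3a1*, a collagen gene, was at 240.1, 215, 572 and 364 TPM.

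The macrophage and monocyte list, with 12 of 12 detected, summed to 3522, 3215, 8541 and 7442 TPM, led by the complement gene *C1qb* at 839, 754, 2257 and 2036 TPM, and was higher in both SiglecF hi libraries. The erythroid list, with 5 genes detected in each library, summed to 1417, 780.5, 893 and 999.7 TPM, led by the globin gene *Hba-a2* at 799, 408, 412 and 450.4 TPM. The eosinophil list had 3, 3, 6 and 3 of 7 genes detected and summed to 173, 87.9, 117 and 119 TPM, nearly all of it *Ear2*, at 171, 85.9, 109.8 and 113 TPM, while *Epx*, which encodes the eosinophil peroxidase, was at 0 in all libraries. The lymphocyte list had 5, 5, 6 and 8 of 9 detected and summed to 7.49, 9.99, 7.15 and 14.4 TPM, led by *Cd3d* at 1.59, 4.13, 1.27 and 4.09 TPM. The 11 neutrophil and sorting genes summed to 155454, 203925, 28932 and 33876 TPM, led by *S100a9* at 76228, 89228, 13719 and 15355 TPM. The part of these other cells in the cardiomyocyte transcripts was not tested.

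Some of the counts could be shared with other genes. On GRCm39, 6 of the 10 genes overlapped another gene of the files, and the strand of counting was not stated. *Tnnc1* lay over its whole 3418 bases within *Nisch*, on the opposite strand, which had 1371, 2117, 3726 and 3072 counts, and *Pln* lay over 8321 bases within *Cep85l*, on the opposite strand, with 121, 259, 338 and 392 counts. *Tnni3* shared 1297 bases and its strand with *Dnaaf3*, with 0, 19, 37 and 18 counts. *Mb* overlapped *Apol6*, with 0, 0, 5 and 0 counts, *Myl2* overlapped *Ccdc63*, with 7, 30, 3 and 14, and *Myl3* overlapped *Pth1r*, with 31, 0, 6 and 46. The values of the 6 genes are uncertain as far as counts were shared with the genes they overlap. *Nisch* had more counts than *Tnnc1* in every library, and *Cep85l* more than *Pln* in all but WT SiglecF lo neutrophils. In the SiglecF lo libraries of WT and *Cd300a-/-* mice *Nisch* had 1371 and 2117 counts, and *Tnnc1* had 5 and 0. How many counts such genes shared was not tested.

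Similar sequence was searched in the GENCODE M21 transcripts, which are on GRCm38. Of the 36-base words of *Myh6*, 26.3% also occurred in another gene, nearly all of them in *Myh7*, the slow myosin heavy chain, which had 17, 0, 4 and 11 counts. The share was 4.13% for *Tnnc1*, 2.37% for *Tnni3*, 0.590% for *Myl3*, 0.190% for *Actc1*, 0.137% for *Tnnt2* and 0 for *Mb*, *Myl2*, *Nppa* and *Pln*. The longest run that *Myh6* and *Myh7* have in common is shown because a read that lies wholly within it matches both genes. It is 245 bases long, all coding, in exons 30 and 31 of the 39 exons of *Myh6*.
*Myh6* and *Myh7*: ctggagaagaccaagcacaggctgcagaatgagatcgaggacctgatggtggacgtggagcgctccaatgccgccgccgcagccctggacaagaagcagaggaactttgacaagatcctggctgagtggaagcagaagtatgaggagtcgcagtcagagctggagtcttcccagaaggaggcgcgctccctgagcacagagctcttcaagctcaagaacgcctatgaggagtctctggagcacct

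The 10 genes whose CPM over the 4 libraries was most like that of the sum were, in order, *Btnl9*, *Tcap*, *Mphosph10*, *Zfp942*, *Evi5l*, *Jrkl*, *Mto1*, *Pop1*, *Dkc1* and *Atad5*, by the Euclidean distance of centred log2(CPM + 0.1) over 4 libraries. The distance was 0.0716 for *Btnl9*, which had 51, 31, 86 and 140 counts, and 0.107 for *Tcap*, which had 18, 10, 31 and 46. *Tcap* was the only one of them among the genes of heart muscle listed here. With 4 libraries and 11462 genes searched, nothing follows from these distances about the genes.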

How the data were processed

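RNA-Seq of poly(A) RNA was made by the study with the NEBNext Ultra II kit and processed in CLC Genomics Workbench 20, and the submitters' processing notes name GRCm39. Settings, annotation release and counting strand were not given in the sources used here. For each gene the authors deposited a raw count, without normalization. The deposited TPM divides counts by exon length and by the library's total of such values, and the deposited RPKM by length and depth. The deposited signal that the files call CPM was the count scaled to depth by a factor of 1.10, 1.15, 0.884 and 0.893, the inverse of the TMM factors of edgeR, and neither it nor RPKM was used further. Libraries were grouped by title. Levels are counts with exact Poisson intervals, CPM scaled to the counts on genes, and deposited TPM. Ratios are log2 ratios of CPM without a pseudocount, with exact conditional binomial (Clopper-Pearson) 95% intervals. A library with 0 counts entered at 3 counts, and no fold was given where both were at or under 3. The 11472 genes with a mean TPM above 1 served as background. Medians include such values, and “at least” is given from the 95% limit. No test compared conditions, because each had 1 library. The 10 genes, and the 16 lists beside them, were chosen with earlier results of these data known. Genes named are the 10, *Cd300a*, the sorting genes, up to 5 genes of each list with the highest mean TPM, list genes at 0 in all libraries, and the 10 genes nearest to the sum. Of the lists, 1 gene is not reported here. Genes that overlap or resemble the 10 were named for their position or sequence, after values were seen. Alternatives were TMM scaling (edgeR 4.0.16 in R 4.3.3), centring on the median, TPM with pseudocounts of 0, 1 and 0.1, leaving out each gene, a threshold of 1, a mean TPM above 10 and no filter. The ratios and intervals were run on simulated Poisson counts, the model that the intervals assume. Such counts hold no copies of molecules, so the run could not show whether the intervals are too narrow. Python 3.11.15, numpy 2.4.6, pandas 2.3.3, scipy 1.17.1 and matplotlib 3.10.9 were used.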

Additional observations from a re-analysis of the deposited data

Results flagged for a closer look

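The log2 ratio of *Cd300a-/-* to WT had opposite signs in the 2 subsets, with both counting intervals excluding 0, for the sum of the 10 cardiomyocyte genes and for *Mb*, *Myh6*, *Tnni3* and *Pln*. The ratio in SiglecF hi minus that in SiglecF lo neutrophils was 1.7469 for the sum, 3.8964 for *Mb*, 3.6407 for *Myh6*, 4.3689 for *Tnni3* and 2.1143 for *Pln*, in log2 units. These differences were not tested, since each of the 4 groups had 1 library. Those of *Myh6* and *Tnni3* rest on 6 counts in *Cd300a-/-* SiglecF lo neutrophils, and that of *Mb* on 11. Some other lists also had opposite signs in summed CPM, with both intervals excluding 0. In SiglecF lo and SiglecF hi the ratios were −2.83 and 0.45 for thick filament, −1.39 and 0.36 for Z disc, and −1.05 and 0.18 for energy metabolism. They were −1.57 and 0.37 for endothelial, −3.12 and 0.31 for skeletal muscle, and −0.90 and 0.13 for erythroid genes. The sign for thick filament in SiglecF hi neutrophils depended on the scale, since its summed TPM was 10.5 in WT and 4.72 in *Cd300a-/-* mice. There *Ttn* gave 90 of its 318 counts in WT and 226 of 396 in *Cd300a-/-* mice. The other lists named kept their signs in summed TPM. The lists not named here did not show opposite signs with both intervals excluding 0. If 10 counts stood for 1 molecule, the SiglecF hi interval of the endothelial list, 0.21 to 0.52, still excluded 0. Those of the other lists named here included 0. That of the sum of the 10 genes was then 0.44 to 1.16.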

How the results depend on the processing

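The summed log2 ratio of *Cd300a-/-* to WT in SiglecF hi neutrophils stayed between 0.70 and 0.88 under all 15 alternatives, within its counting interval, and that in SiglecF lo neutrophils stayed below 0 under all 15, leaving its interval only without *Myl2*, at −1.21. Between the subsets, SiglecF hi over SiglecF lo, the ratio in WT mice was −0.52 with TMM scaling, −0.62 centred on the median of all genes, 0.23 in summed TPM, 0.22 in summed TPM with a pseudocount of 1, 0.12 without *Pln* and 0.081 as the median of the genes. In *Cd300a-/-* mice it was 1.17 with TMM scaling, 1.03 centred, 1.82 in summed TPM, 1.79 with a pseudocount of 1, 1.79 without *Pln*, 1.24 without *Mb*, 1.36 without *Myh6* and 1.88 without *Myl2*. With a mean TPM above 10, which left 4 of the 10 genes and so fewer to count, 2 passed 0.5 for genotype in SiglecF lo (38.6% of 6523 genes), 2 for genotype in SiglecF hi (7.42%), 2 for subset in WT (49.3%) and 3 for subset in *Cd300a-/-* mice (56.9%). Without a filter 7 passed for genotype in SiglecF hi, as with it, but of 16450 genes 29.7% did. A threshold of 1 left 3 genes for subset in WT mice, where 31.3% of genes passed it. If 10 counts stood for 1 molecule, chosen after the data were seen, the genes past 0.5 with an interval excluding 0 were 0 for genotype in SiglecF lo, 3 for genotype in SiglecF hi, 1 for subset in WT and 4 for subset in *Cd300a-/-* mice. For this setting the share of all genes was not counted. The cause of the shifts with scale was not tested. No paired analysis was possible because each group had 1 library. Depth limits the SiglecF lo libraries most, where 1 count was 0.104 CPM in WT and 0.0910 CPM in *Cd300a-/-* mice.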

Other observations

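Genes listed for skeletal muscle were also counted, and the tissue their counts came from was not tested. Of 12 such genes 10, 8, 8 and 8 had counts, and they summed to 131, 15.0, 23.7 and 29.3 CPM, or 120.0, 21.4, 51.7 and 57.1 TPM, led over the 4 libraries by *Tnni2*, a fast troponin I, at 27.1, 6.60, 37.2 and 39.1 TPM. *Myh4*, the heavy chain of the fastest muscle fibers, had 463, 26, 5 and 54 counts, and *Acta1*, skeletal actin, had 244, 31, 11 and 22. Both were highest in WT SiglecF lo neutrophils, the library with most *Ttn* counts as well. *Tnnt3*, the fast troponin T, had 82, 24, 50 and 80 counts and *Mylpf*, a fast light chain, 31, 28, 71 and 40. *Myf5* and *Myod1*, factors of muscle precursors, were at 0 in all 4 libraries. The log2 ratio of the summed CPM of *Cd300a-/-* to WT was −3.12 (−3.37 to −2.89) in SiglecF lo and 0.31 (0.12 to 0.49) in SiglecF hi neutrophils. The part of skeletal muscle in the levels of *Mb*, *Tnnc1* and *Myl3*, which slow muscle also expresses, was not tested.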
